A study of Mus musculus with 25 samples.

Results

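The 3 enzymes that turn circulating ketone bodies into acetyl-CoA in heart mitochondria were followed at the level of their transcripts, Bdh1, Oxct1 and Acat1. They were taken by gene symbol, with earlier results of these data known. All 3 were found among the 56941 genes counted, and all 3 were among the 17682 genes that passed the filter on low counts. RNA sequencing was done on 25 mouse hearts, 1 library each, in 6 groups. Wild-type (WT) mice gave 4 hearts without a pump, 6 with saline and 3 with Ang/PE, neurohormonal agonists used to bring on hypertrophy of the heart muscle. Mice labelled MCT1KO gave 3 hearts without a pump, 4 with saline and 5 with Ang/PE. The series is about the handling of lactate in the hypertrophic heart, and MCT1 is the lactate carrier encoded by Slc16a1. Which allele was deleted, in which cells, and the strain, age, dose and duration are not given in the sources used here.

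Ketone bodies are made from fatty acids in the liver and oxidised in other organs, among which the heart is a steady user. Bdh1 encodes the mitochondrial D-β-hydroxybutyrate dehydrogenase, which oxidises β-hydroxybutyrate to acetoacetate. Oxct1 encodes succinyl-CoA:3-ketoacid-CoA transferase (SCOT), which moves coenzyme A from succinyl-CoA onto acetoacetate and is the committing step of ketone body use. Acat1 encodes the mitochondrial acetoacetyl-CoA thiolase, which splits acetoacetyl-CoA into acetyl-CoA and also takes part in isoleucine breakdown. Ketone bodies enter cells through monocarboxylate carriers, of which MCT1 is one.

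The proximal promoters are shown for Bdh1, the enzyme whose transcript differed most, and for Oxct1. The promoter set used held no window for Acat1. The 3 windows, at 2 start sites of Bdh1 and 1 of Oxct1, run from 250 bases before to 50 after the start and are given 5′ to 3′ on the + strand, from RefSeq on GRCm38.p6. They lie at chr16:31422047-31422346, chr16:31428503-31428802 and chr15:4026178-4026477. Capitals mark the only match to the motifs searched.
Bdh1, first start: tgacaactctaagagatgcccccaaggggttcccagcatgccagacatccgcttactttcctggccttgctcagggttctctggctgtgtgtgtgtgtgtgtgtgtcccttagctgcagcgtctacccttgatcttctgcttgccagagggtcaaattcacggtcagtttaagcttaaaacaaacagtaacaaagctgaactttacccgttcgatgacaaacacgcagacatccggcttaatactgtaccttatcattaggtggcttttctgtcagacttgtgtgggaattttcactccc
Bdh1, second start: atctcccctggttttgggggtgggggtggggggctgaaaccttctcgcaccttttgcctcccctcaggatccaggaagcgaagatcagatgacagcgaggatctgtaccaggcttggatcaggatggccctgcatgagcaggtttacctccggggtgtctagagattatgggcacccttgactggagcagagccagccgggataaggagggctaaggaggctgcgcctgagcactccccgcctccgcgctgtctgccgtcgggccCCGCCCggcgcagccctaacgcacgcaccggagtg
Oxct1: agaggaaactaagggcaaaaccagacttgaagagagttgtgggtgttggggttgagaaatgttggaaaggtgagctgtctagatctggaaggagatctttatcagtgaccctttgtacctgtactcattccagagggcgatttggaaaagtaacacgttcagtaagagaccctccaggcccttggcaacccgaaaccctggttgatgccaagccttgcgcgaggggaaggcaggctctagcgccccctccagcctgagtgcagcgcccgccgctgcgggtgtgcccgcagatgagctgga
Both strands were searched for 4 motifs. AGGTCA, the core of nuclear receptor sites, is in none of the 3 windows and is in 16.3% of 32851 mouse promoter windows of the same length. TCAAGGTCA, the estrogen-related receptor element, contains AGGTCA and is in none of the 3 and in 0.423% of all windows. CACGTG, the E-box of clock factors among others, is in none of the 3 and in 7.15% of all. GGGCGG, the GC box, is in the window of the second Bdh1 start, on the opposite strand with its first base at position 16 after the start, and in 35.7% of all windows. These are matches of letters in short windows and say nothing of binding.

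Total counts, in units of 10⁶, were 12.2 to 24.9 per heart, with the 3 WT and 5 MCT1KO hearts under Ang/PE at 12.2 to 16.6 and the 7 hearts without a pump at 18.4 to 24.9. The labels do not say whether hearts of a group came from separate litters or batches, so p-values measure the spread between these libraries. The label MCT1KO was checked on Slc16a1, whose mean level was 203 CPM (the count divided by the TMM-scaled library total in units of 10⁶ counts) in WT hearts without a pump, 199 with saline and 214 with Ang/PE. In hearts labelled MCT1KO it was 199.8, 158 and 189.8 CPM, and the average difference was -0.17 on the log2 scale (SE 0.08, edgeR adjusted p = 0.429). The gene-level count did not show a loss of the transcript, though a deletion of a few exons or in some cells could leave such a count. Genotype is given below as labelled. Of 4 hypertrophy markers, Myh7 rose with Ang/PE against saline in MCT1KO-labelled hearts, by 2.37 on the log2 scale (SE 0.59, adjusted p = 0.0268). Its range there was 639 to 4667 CPM under Ang/PE and 197 to 689 CPM with saline. None of the 4 was called in WT hearts, where 1, Nppb, had an unadjusted p below 0.05. Over all tested genes, 4.46% were called in MCT1KO-labelled hearts and 0.017% in WT hearts. Heart muscle markers, 8 in all, summed to 35120 CPM in MCT1KO saline replicate 4 and to 46360 to 71280 CPM in the other 24 hearts. Saline hearts stood apart in a further way. The 3 atrial muscle markers Myl4, Myl7 and Sln summed to 1.5 to 2.5 CPM in hearts without a pump and to 1.72 to 5.73 CPM with Ang/PE. They summed to 2.04 to 1136 CPM in WT saline hearts and to 1.5 to 3679 CPM in MCT1KO saline hearts, where 8 of the 10 saline hearts lay above all others. The heart with the most, MCT1KO saline replicate 4, also had 1217 CPM of 6 fat cell markers, against 11.4 to 63.0 CPM in the other 24 hearts, and 1431 CPM of the ventricular markers Myl2 and Myl3, against at least 6168 CPM elsewhere. It had the lowest level of all 3 enzymes.

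Per length of the longest transcript, Oxct1 was the most abundant of the 3 enzymes, with a mean level of 282.5 CPM per kb over the 25 hearts, followed by Acat1 with 107.5 and Bdh1 with 34.3. With the median transcript length the values were 1425, 732 and 72.5 CPM per kb, in the same order. By CPM, Oxct1 ranked 80 of the 17682 tested genes, Acat1 ranked 279 and Bdh1 ranked 1366. Counts behind each value were ample, 573 to 3028 per heart for Bdh1, 7535 to 27298 for Oxct1 and 3891 to 11310 for Acat1. Bdh1 overlaps an antisense gene, Gm15743, over 533 bases of exon, and Oxct1 overlaps BC037032 over 467 bases. Their totals over all hearts were 913 and 3681 counts, and the strand setting of the counting is not given in the sources used here. In RNA from heart tissue, fewer cells of a type and less RNA per cell cannot be told apart.

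**Figure D1:**
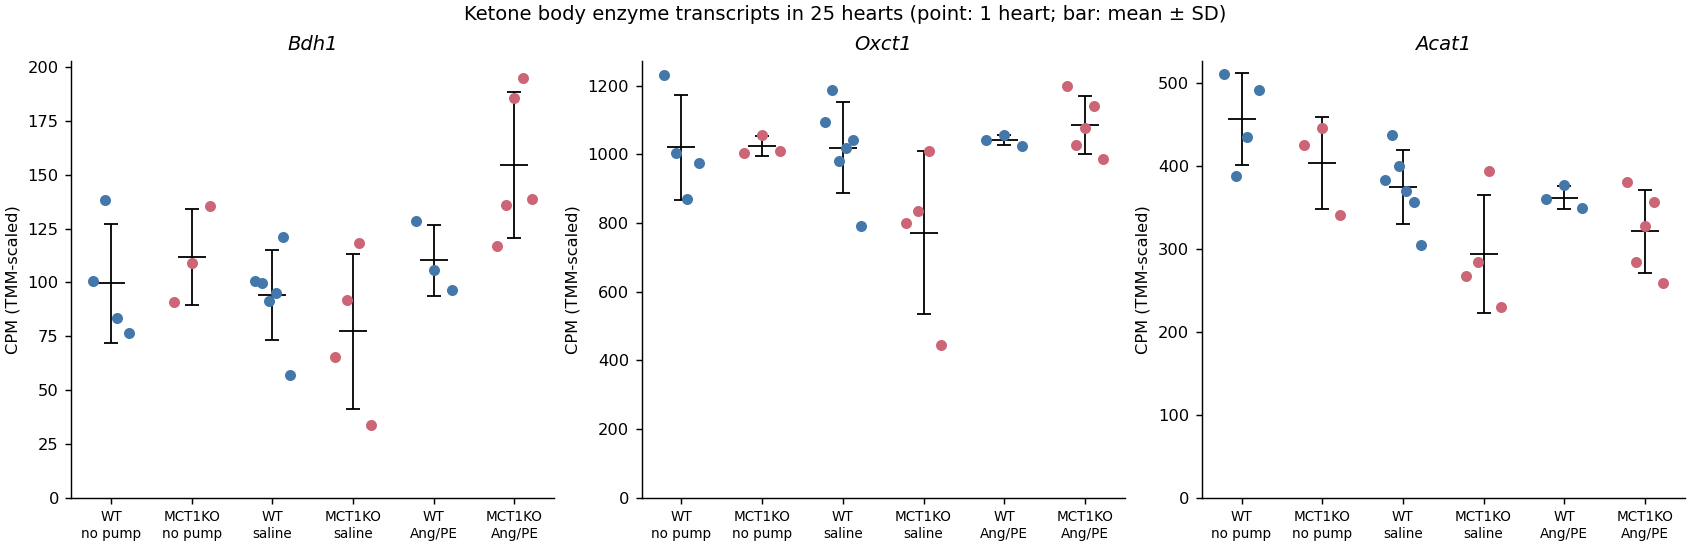
Level of Bdh1, Oxct1 and Acat1 in CPM (TMM-scaled) in each of the 25 hearts by genotype and treatment; points are hearts and bars are the mean ± SD. MCT1KO hearts under Ang/PE have the highest mean Bdh1 level at 154 CPM, and MCT1KO saline hearts have the lowest mean for each enzyme.

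Bdh1, at the entry of the pathway, varied most. Its level in MCT1KO hearts under Ang/PE was 117, 136, 186, 195 and 139 CPM. In MCT1KO saline hearts it was 65.3, 91.9, 118 and 33.8 CPM. Of the 5 hearts under Ang/PE, 4 lay above all 4 saline hearts, and the ranges overlapped only at 117 against 118 CPM. Without a pump the MCT1KO hearts had 91.1, 109 and 135 CPM of Bdh1, between the other 2 groups. In WT hearts the level was 129, 106 and 96.6 CPM with Ang/PE, and 100.5, 138, 83.5 and 76.6 CPM without a pump. The 6 WT saline hearts ran from 57.2 to 121 CPM with a median of 97.5. Ranges of the 3 WT groups overlapped throughout. By mean level the order was MCT1KO Ang/PE (154 ± 33.9 CPM, SD, n = 5), MCT1KO no pump (112 ± 22.3, n = 3), WT Ang/PE (110.3 ± 16.5, n = 3), WT no pump (99.7 ± 27.6, n = 4), WT saline (94.2 ± 20.8, n = 6) and MCT1KO saline (77.3 ± 36.1, n = 4). Each group overlapped the next in this order.

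Oxct1, the transferase, varied least in the 3 WT hearts under Ang/PE and the 3 MCT1KO hearts without a pump. It was 1041, 1055 and 1025 CPM in WT hearts under Ang/PE and 1004, 1057 and 1011 CPM in MCT1KO hearts without a pump. MCT1KO hearts under Ang/PE had 1198, 1028, 1078, 1140 and 987 CPM. In MCT1KO saline hearts it was 799, 836, 1009 and 444 CPM, so that 3 of the 4 fell below every heart with Ang/PE of either genotype. WT hearts without a pump had 1232, 1004, 869 and 976 CPM of Oxct1, and WT saline hearts 792 to 1187 CPM with a median of 1030, the lowest of them below 3 of the 4 MCT1KO saline hearts. Group means ran from 1086 ± 84.8 CPM (SD, n = 5) in MCT1KO hearts under Ang/PE to 772 ± 237 CPM (n = 4) in MCT1KO saline hearts. The 4 groups between them had means of 1019 to 1041 CPM and did not differ beyond their spread, and neighbours at both ends of the order overlapped too.

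Acat1, the thiolase at the end of the pathway, was highest without a pump. WT hearts without a pump had 510.3, 388, 434 and 492 CPM, and MCT1KO hearts without a pump 425, 445 and 341 CPM. WT saline hearts ran from 305 to 437 CPM with a median of 376. With Ang/PE, WT hearts had 359.8, 377 and 349 CPM. MCT1KO saline hearts had 267, 284, 394 and 229.5 CPM of Acat1. MCT1KO hearts under Ang/PE had 380.3, 284, 327, 356 and 259 CPM, and so did not share the high position they held for Bdh1. By mean level the order was WT no pump (456 ± 55.7 CPM, SD, n = 4), MCT1KO no pump (404 ± 55.4, n = 3), WT saline (375 ± 44.6, n = 6), WT Ang/PE (362 ± 13.8, n = 3), MCT1KO Ang/PE (321 ± 50.1, n = 5) and MCT1KO saline (294 ± 70.7, n = 4), with overlap at each step.

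Ang/PE against saline in MCT1KO-labelled hearts gave the only call among the 3 enzymes. Bdh1 rose 2.00-fold (95% interval 1.35 to 2.96), a log2 fold change of 1.00 (SE 0.27, edgeR quasi-likelihood adjusted p = 0.0400). Oxct1 had a log2 fold change of 0.49 (SE 0.16, adjusted p = 0.0750) and Acat1 of 0.13 (SE 0.14, adjusted p = 0.656), and neither passed the threshold of 0.05. The comparison called 4.46% of all tested genes, 310 higher and 478 lower, against 1 of 3 enzymes. DESeq2 on the same counts called 2 of the 3, with Oxct1 at 0.49 (adjusted p = 0.0338). Over all genes DESeq2 called 1224 of 17682.

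The Bdh1 difference was smaller with atrial and fat marker scores as covariates and without the 8 saline hearts richest in atrial markers. In hearts labelled MCT1KO, high levels of both marker sets were found only with saline. Marker content and treatment thus cannot be told apart here, and the part of the markers in the Bdh1 difference was not tested. In this comparison 3 of 3 atrial markers and 5 of 5 tested fat cell markers were lower with Ang/PE. In MCT1KO hearts under Ang/PE the atrial sum was 2.01 to 5.73 CPM, with Myl7 at 0 in 1 of 5 hearts and Sln at 0 in 3, and the fat sum was 12.3 to 15.8 CPM, with Ucp1 at 0 in all 5 and Adipoq at 0 in 2. All 8 heart muscle markers had log2 fold changes above 0 (median 0.26, none called), and so did both ventricular markers (median 0.45), beside 0.49 for Oxct1. In MCT1KO saline hearts the sums of atrial and fat markers were 1.5 to 3679 and 11.4 to 1217 CPM, with Myl7 and Sln at 0 in 1 of 4. With both marker scores as covariates the Bdh1 log2 fold change was 0.32 (adjusted p = 0.806). Without the 8 saline hearts above all others in atrial markers it was 0.38 (adjusted p = 0.771). MCT1KO saline replicate 3 then stands alone for its group, and WT saline replicate 1 for WT saline, with the spread of the other groups assumed for both. MCT1KO saline replicate 3 had 1.5 CPM of atrial markers and 118 CPM of Bdh1, inside the range of MCT1KO hearts without a pump. Without replicate 4 of this group alone the change was 0.75 (adjusted p = 0.159). Oxct1 under the same 3 settings had 0.03 (adjusted p = 0.978), 0.10 (adjusted p = 0.911) and 0.30 (adjusted p = 0.272).

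**Figure D2:**
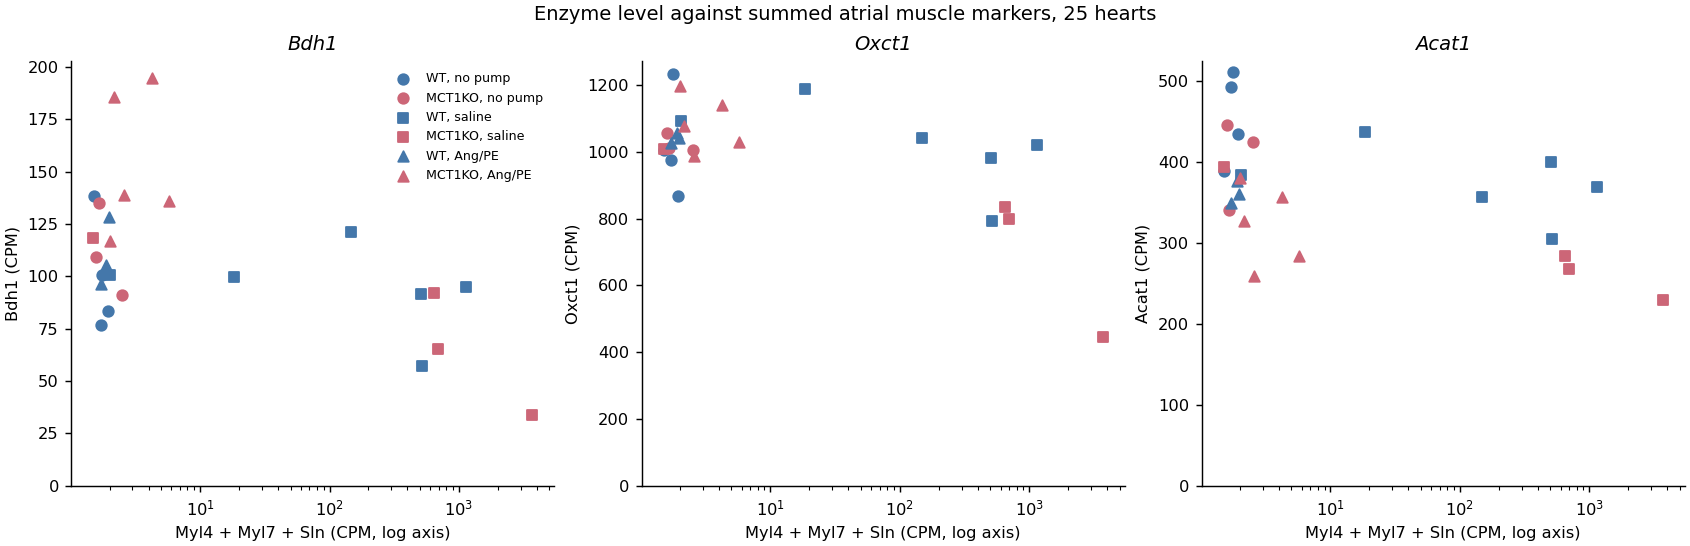
Level of each enzyme (CPM) against the summed level of the atrial muscle markers Myl4, Myl7 and Sln (CPM, log axis) in the 25 hearts, coloured by genotype and shaped by treatment. Saline hearts spread from 1.5 to 3679 CPM of atrial markers, and the heart with the most has the lowest level of all 3 enzymes.

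Collection time and sex are not given in the labels. A score of 10 circadian clock genes was 1.28 to 3.27 in MCT1KO hearts under Ang/PE and -2.21 to -0.43 in MCT1KO saline hearts, with no overlap. Of these genes, 5 of 7 in the negative limb were called lower and 3 of 3 in the positive limb higher in the comparison. Over all 17682 tested genes 478 were called lower and 310 higher. As the scores did not overlap, clock score and treatment cannot be told apart here. With the clock score as a covariate, Bdh1 had a log2 fold change of 0.79 (adjusted p = 0.6246). Xist, the transcript of the inactive X chromosome, was above 1 CPM in 4 of 5 MCT1KO hearts under Ang/PE and in 3 of 4 with saline. The other groups were less alike, with 0 of 3 MCT1KO and 2 of 4 WT hearts without a pump, 1 of 6 WT hearts with saline and 3 of 3 WT hearts under Ang/PE above 1 CPM, so most other comparisons below differ in Xist between their groups. With Xist as a covariate the change of Bdh1 was 1.02 (adjusted p = 0.0407).

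The Bdh1 call depended on other choices as well. It was lost without the low-count filter (adjusted p = 0.110) and when only the 2 groups compared were fitted (adjusted p = 0.249), with log2 fold changes of 0.99 and 0.98. Leaving out each of the 25 hearts in turn gave 0.75 to 1.27, and the call held in 18 of 25 cases. The 7 hearts whose absence ended it were MCT1KO saline replicates 1 and 4, MCT1KO Ang/PE replicates 3, 4 and 5, MCT1KO no pump replicate 2 and WT saline replicate 2.

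**Figure D3:**
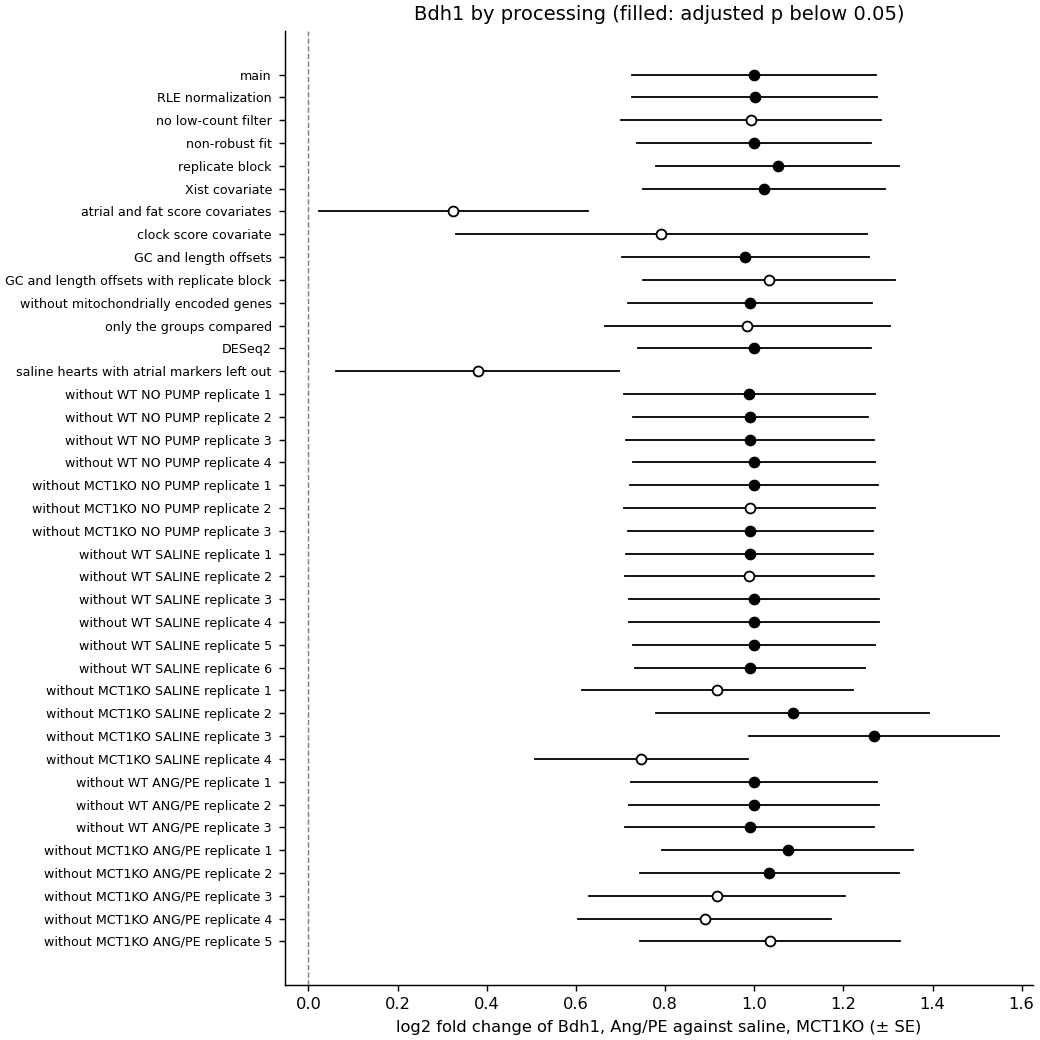
Log2 fold change of Bdh1 (± SE) for Ang/PE against saline in MCT1KO-labelled hearts, under the main processing, 13 alternatives and each of 25 hearts left out; filled points have an adjusted p below 0.05. All values are above 0, and the smallest, 0.32 and 0.38, come with the atrial and fat scores as covariates and without the 8 saline hearts rich in atrial markers.

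In WT hearts, Ang/PE against saline gave log2 fold changes of 0.23 for Bdh1 (95% interval -0.35 to 0.81), 0.03 for Oxct1 (-0.31 to 0.37) and -0.05 for Acat1 (-0.36 to 0.26). None of the 3 was called, at an unadjusted p below 0.05 or by DESeq2 either, where edgeR called 0.017% of all genes. The difference between the genotypes in this response, tested as an interaction, was 0.77 for Bdh1 (SE 0.39, 95% interval -0.04 to 1.59, adjusted p = 0.391). For Oxct1 it was 0.46 (SE 0.23, adjusted p = 0.383) and for Acat1 0.18 (SE 0.21, adjusted p = 0.719). So the response of Bdh1 in hearts labelled MCT1KO was not shown to differ from that in WT hearts. The interaction called 0% of all genes with edgeR, with 2392 at an unadjusted p below 0.05, and DESeq2 called 1.

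Set against hearts without a pump, Ang/PE did not give a call for any of the 3 enzymes. Bdh1 was 0.47 higher on the log2 scale in MCT1KO hearts under Ang/PE than without a pump (SE 0.29, 95% interval -0.15 to 1.08, adjusted p = 0.547). Oxct1 differed by 0.09 (SE 0.17, adjusted p = 0.908) and Acat1 by -0.33 (SE 0.15, adjusted p = 0.351). In WT hearts the same 3 differences were 0.15 (SE 0.30), 0.03 (SE 0.18) and -0.33 (SE 0.16), with adjusted p of 0.930, 0.984 and 0.549. The comparison called 0.503% of all genes in hearts labelled MCT1KO, and 0% in WT, where 1595 genes had an unadjusted p below 0.05 and DESeq2 called 25. Acat1 was the only enzyme with an unadjusted p below 0.05 here, in WT (0.0491) and in MCT1KO (0.0403), and DESeq2 called none of the 3 in either.

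The pump itself was compared through saline against no pump. In hearts labelled MCT1KO, Acat1 had a log2 fold change of -0.46 (SE 0.16, unadjusted p = 0.00822, adjusted p = 0.249), Oxct1 of -0.41 (SE 0.18, adjusted p = 0.354) and Bdh1 of -0.53 (SE 0.30, adjusted p = 0.498). None passed, and 0.00566% of all genes did. Without MCT1KO saline replicate 3, Acat1 passed at -0.63 (adjusted p = 0.0234). With atrial and fat scores as covariates the 3 values were -0.11, 0.07 and 0.16 in the same order. In WT hearts, where 6.61% of all genes were called, Acat1 differed by -0.28 (SE 0.13, adjusted p = 0.198), Oxct1 by -0.0020 (SE 0.15, adjusted p = 0.997) and Bdh1 by -0.08 (SE 0.26, adjusted p = 0.883). DESeq2 called none of the 3 in either genotype. In WT hearts 3 of 3 atrial markers were higher with saline than without a pump. The interaction of genotype with the pump was -0.45 for Bdh1, -0.41 for Oxct1 and -0.18 for Acat1, with adjusted p of 0.588, 0.378 and 0.707, and called 0.00566% of all genes.

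Between the genotypes as labelled no enzyme was called under any treatment. With saline, Oxct1 differed by -0.40 (SE 0.15, unadjusted p = 0.0154, adjusted p = 0.206), Acat1 by -0.35 (SE 0.14, unadjusted p = 0.0164, adjusted p = 0.207) and Bdh1 by -0.29 (SE 0.26, adjusted p = 0.593) in hearts labelled MCT1KO against WT. The Oxct1 value was -0.20 without MCT1KO saline replicate 4, -0.15 with atrial and fat scores as covariates and -0.10 without the 8 saline hearts rich in atrial markers. Acat1 passed without MCT1KO saline replicate 3, at -0.52 (adjusted p = 0.0465). Its sign turned, to 0.06, without the 8 saline hearts rich in atrial markers. That last setting, also behind the Oxct1 value of -0.10, compares 1 heart with 1 heart, MCT1KO saline replicate 3 and WT saline replicate 1. With Ang/PE the differences were 0.49 for Bdh1 (SE 0.29, adjusted p = 0.755), 0.06 for Oxct1 (SE 0.17, adjusted p = 0.960) and -0.17 for Acat1 (SE 0.15, adjusted p = 0.821). Without a pump they were 0.17 (SE 0.30), 0.0054 (SE 0.18) and -0.18 (SE 0.16), with adjusted p of 0.875, 0.994 and 0.700. Averaged over the 3 treatments, Acat1 differed by -0.23 (SE 0.09, 95% interval -0.41 to -0.05, unadjusted p = 0.0126, adjusted p = 0.377), and all 3 treatments gave it the same sign. These 4 comparisons called 0% of all genes with edgeR, with 1223 to 3014 genes at an unadjusted p below 0.05. DESeq2 called 24 genes without a pump, 146 with saline, 5 with Ang/PE and 6 on average, none of them among the 3 enzymes.

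**Figure D4:**
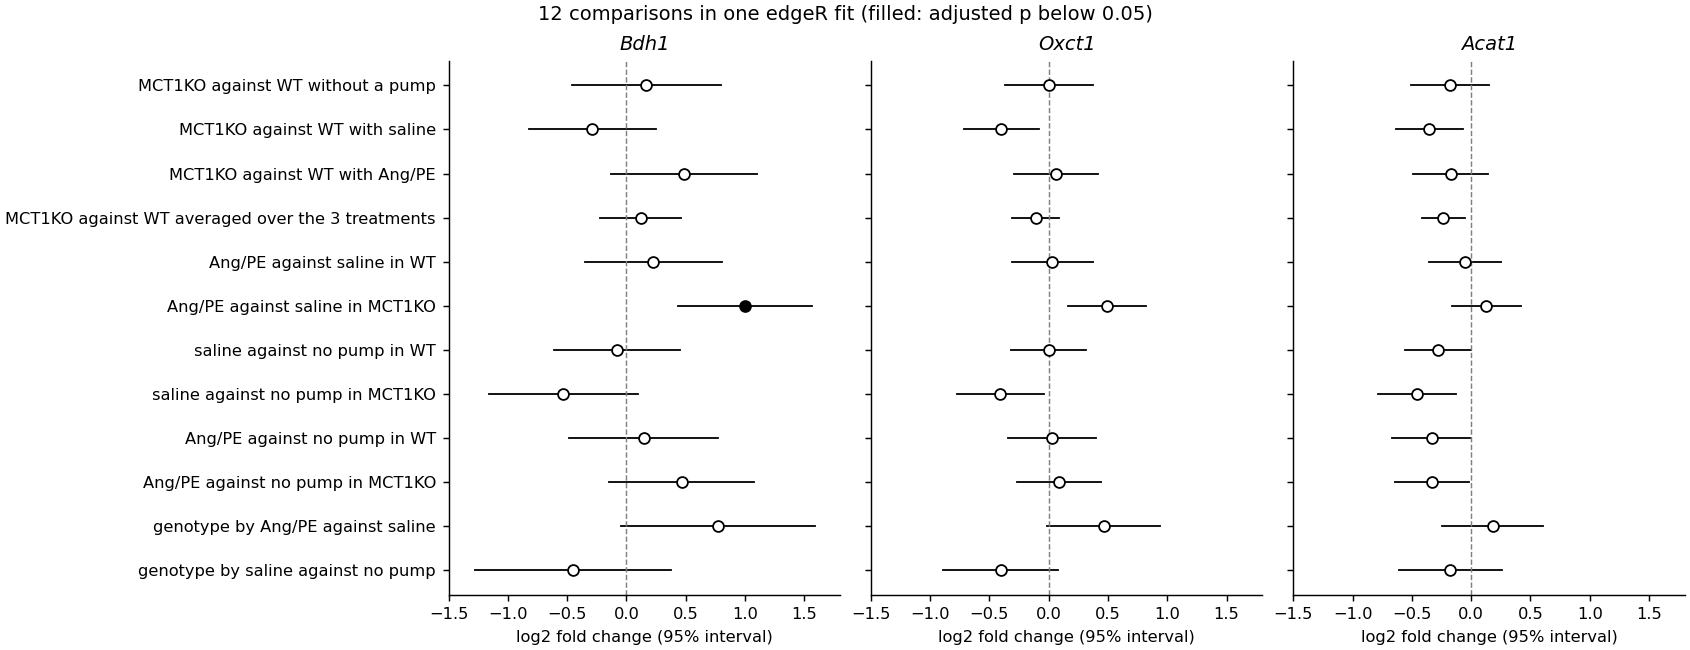
Log2 fold change with its 95% interval for Bdh1, Oxct1 and Acat1 in 12 comparisons from 1 edgeR fit of 25 hearts; the filled point has an adjusted p below 0.05. Only Bdh1 for Ang/PE against saline in MCT1KO hearts passes, at 1.00.

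The other genes of the pathway were followed through 6 lists. Of 10 other ketone body enzymes, 6 passed the filter on low counts, and 1 of the 6 was lower and none higher with Ang/PE than with saline in hearts labelled MCT1KO, where 478 of the 17682 genes tested were lower. The list's median log2 fold change was -0.84 against -0.011 over all genes. The 1 was Acat2, the cytosolic acetoacetyl-CoA thiolase, at -1.54 (SE 0.39, adjusted p = 0.0288). Its level was 4.12, 4.06, 2.56 and 19.9 CPM in MCT1KO saline hearts and 2.19 to 3.63 CPM under Ang/PE. The value of 19.9 belongs to replicate 4, the heart rich in atrial and fat markers, and without that heart the change was -0.45 (adjusted p = 0.374). Acat2 has a close copy, Acat3, counted at a mean of 0.151 CPM, and reads shared by the pair may have been split. Hmgcs1, a cytosolic enzyme of sterol synthesis, had a mean of 33.8 CPM and a change of -0.15 (adjusted p = 0.642). Oxct2a and Oxct2b, copies of Oxct1, were at 0.0135 and 0.00541 CPM.

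Among 8 carriers, chaperones and receptors, 6 were tested. Slc16a6, which encodes MCT7, a carrier that exports ketone bodies from liver cells, rose. Its level under Ang/PE in hearts labelled MCT1KO was 13.4, 15.99, 16.6, 13.8 and 15.01 CPM. It was 11.8, 12.1, 7.87 and 7.43 CPM with saline and 7.51, 7.44 and 9.07 CPM without a pump. The 13 WT hearts reached 12.3 CPM. Against saline the log2 fold change was 0.61 (SE 0.18, adjusted p = 0.0476), which 4 of 25 fits with 1 heart left out also called. Against no pump it was 0.90 (SE 0.20, adjusted p = 0.0333), called in 19 of 25, and at 0.90 both with the marker scores as covariates (adjusted p = 0.0288) and without the 8 saline hearts (adjusted p = 0.0422). Against saline the same 2 settings gave 0.44 (adjusted p = 0.685) and 0.92 (adjusted p = 0.5676). With Xist as a covariate neither comparison was called, at 0.90 against no pump (adjusted p = 0.174) and 0.61 against saline (adjusted p = 0.0570). With the clock score as a covariate the Slc16a6 changes were 0.90 (adjusted p = 0.895) and 0.61 (adjusted p = 0.554). Slc16a6 was the 1 of 6 called in each of these comparisons, with list medians of 0.21 against saline and 0.32 against no pump. Over all genes 4.46% and 0.503% were called, with medians of -0.011 and -0.0030. Bsg, the chaperone of MCT1, had a mean of 733 CPM and a change of 0.33 against saline (adjusted p = 0.250), Slc16a1 a change of 0.26 (adjusted p = 0.280) and Slc16a7, encoding MCT2, a change of -0.59 (adjusted p = 0.0780). Of the receptors, Hcar2 was at 0.103 CPM and Ffar3 had no count in any heart, which did not allow a test.

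Of 15 thiolases and other fatty acid oxidation enzymes, all tested, 1 was lower in each comparison of Ang/PE in hearts labelled MCT1KO and none was higher, where 4.46% of all genes were called against saline and 0.503% against no pump. Against no pump this was Acaa2, the mitochondrial 3-ketoacyl-CoA thiolase, at -0.76 (SE 0.17, adjusted p = 0.0402), called in 17 of 25 fits with 1 heart left out and under 7 of 13 alternatives. The 6 that ended the call included Xist as a covariate (-0.70, adjusted p = 0.254), the clock score as a covariate (-0.70, adjusted p = 0.950) and the fit without the 8 saline hearts (-0.76, adjusted p = 0.0818). Acaa2 had 519, 275, 417, 443 and 300.0 CPM under Ang/PE, and 532, 673 and 777 CPM without a pump. The list's median there was -0.34, with 0 of 15 values above 0, beside -0.0030 over all genes. Against saline the call was Acaa1b, a peroxisomal thiolase, at -4.81 (SE 0.91, adjusted p = 0.0116). It had 182 counts in MCT1KO saline replicate 4 and at most 14 in any other heart, and without that heart it failed the filter on low counts. It also has a close copy, Acaa1a. The list's median against saline was 0.09. Hadhb and Hadha, the subunits of the trifunctional protein, had changes of 0.06 (adjusted p = 0.894) and 0.10 (adjusted p = 0.790) against saline, and -0.38 (adjusted p = 0.367) and -0.42 (adjusted p = 0.302) against no pump. With saline, 15 of 15 genes of this list had an unadjusted p below 0.05 between the genotypes, 14 of them lower in hearts labelled MCT1KO, with a median of -0.43. Over all genes 3014 of 17682 had such a p. The heart muscle markers lay the same way, with 0 of 8 values above 0 (median -0.34) and 0 of 2 for the ventricular markers (median -0.42), and their part in the result was not tested. EdgeR called none of the 15 after adjustment and DESeq2 called 3, beside 146 called by DESeq2 over all 17682 genes.

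Oxct1 uses succinyl-CoA and the pathway delivers acetyl-CoA, so 8 makers and users of these in the mitochondrial matrix were listed, all tested. None was called for Ang/PE against saline in MCT1KO-labelled hearts, where 1 had an unadjusted p below 0.05 and DESeq2 called none, with a median of 0.16. Dld, the shared dihydrolipoamide dehydrogenase subunit, was lower with saline than without a pump in WT hearts, at -0.43 (SE 0.13, adjusted p = 0.0489). It had 356 to 409 CPM without a pump and 232 to 335 CPM with saline. The call held in 9 of 25 fits with 1 heart left out, and the change was -0.15 (adjusted p = 0.812) with atrial and fat covariates. Ogdh, the oxoglutarate dehydrogenase subunit that makes succinyl-CoA, had a change of 0.36 for Ang/PE against saline in MCT1KO-labelled hearts (adjusted p = 0.210), Dlst, its partner subunit, of 0.20 (adjusted p = 0.406), and Cs, citrate synthase, of 0.13 (adjusted p = 0.652).

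None of 9 enzymes of isoleucine and leucine breakdown was called by edgeR in any of the 12 comparisons. For Ang/PE against saline in MCT1KO-labelled hearts none had an unadjusted p below 0.05, DESeq2 called none, and the median was 0.14. Ivd, Bckdha, Acadsb and Mccc1, the most abundant, had changes of 0.14, 0.26, 0.07 and -0.00087. Of 11 regulators, 10 were tested and none was called by edgeR in any comparison. In the same comparison 2 had an unadjusted p below 0.05, against 3612 of all 17682 genes, and the median was 0.05. DESeq2 called 1 of the 10 there, and 1224 over all genes. Ppargc1a, a coactivator of mitochondrial genes, had a change of 0.60 (SE 0.20, adjusted p = 0.0847). Pdk4, a kinase that restrains pyruvate oxidation, Esrra, the estrogen-related receptor alpha, and Rxra, a shared nuclear receptor partner, had 0.38 (adjusted p = 0.725), -0.07 (adjusted p = 0.795) and 0.03 (adjusted p = 0.918).

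**Figure D5:**
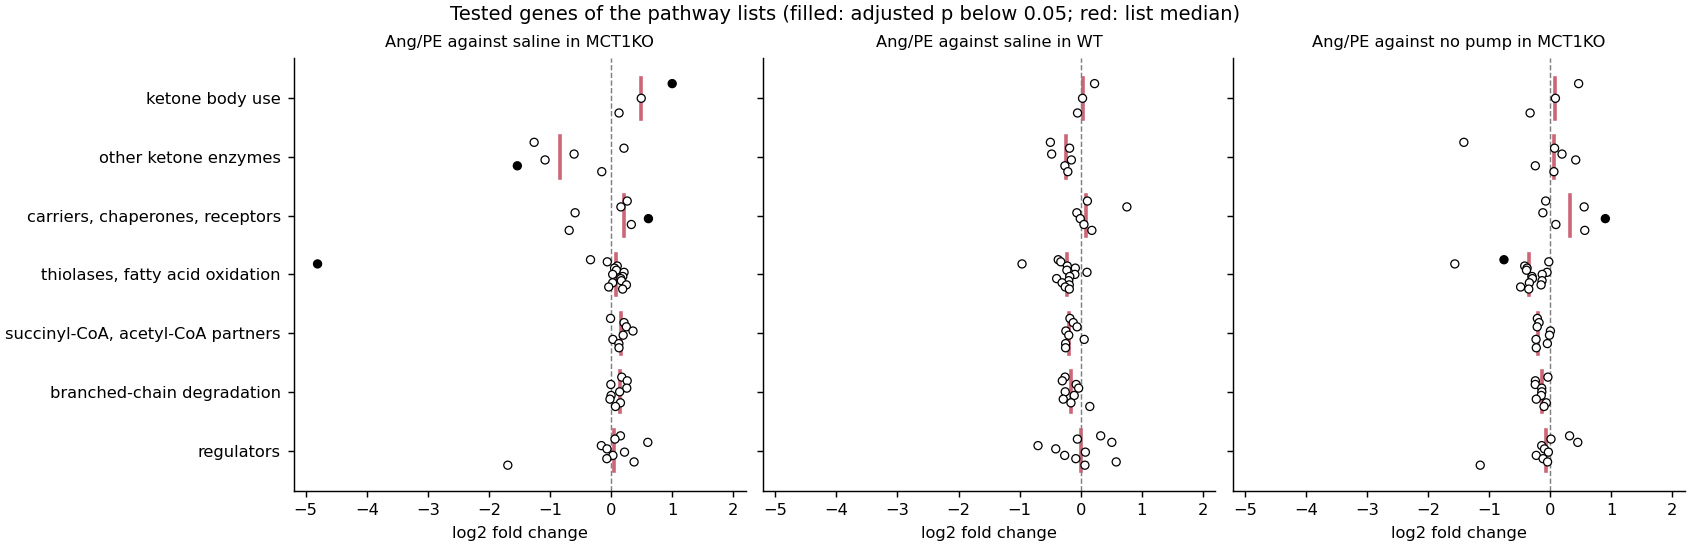
Log2 fold change of each tested gene of the 3 ketone body enzymes and the 6 pathway lists in 3 comparisons; filled points have an adjusted p below 0.05 and red bars are list medians. In MCT1KO hearts Bdh1 and Slc16a6 are the filled points to the right for Ang/PE against saline, and Acat2 and Acaa1b those to the left.

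Over the 25 hearts the log2 CPM of Bdh1 and Oxct1 varied together, with a Pearson r of 0.78 and a Spearman rho of 0.59. Without the 2 hearts farthest from the Bdh1 median, MCT1KO saline 4 and MCT1KO Ang/PE 4, r was 0.57. Bdh1 and Acat1 had an r of 0.23 and a rho of -0.12, and an r of -0.10 without the same 2. Oxct1 and Acat1 had an r of 0.63 and a rho of 0.37, and an r of 0.45 without the 2 farthest from the Oxct1 median, MCT1KO saline 4 and WT saline 6. As deviations from the group means, r was 0.76 for Bdh1 and Oxct1, 0.40 for Bdh1 and Acat1 and 0.74 for Oxct1 and Acat1. Without the 2 farthest on that scale, MCT1KO saline 4 and 3, these were 0.49, 0.02 and 0.64. These describe levels that share library, depth and the mixture of tissue in each heart.

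Among 11628 tested genes with a symbol and a mean log2 CPM above 1, the 3 most like Bdh1 over the 25 hearts were Prune2, Rcsd1 and Inpp5a, with r of 0.87, 0.86 and 0.86. As deviations from the group means they were Prune2, Rhd and Plin3, with r of 0.87, 0.84 and 0.81. Oxct1 ranked 19 in likeness to Bdh1. The genes most like Oxct1 were Kctd9, Ifngr2 and Plin3, with r of 0.96, 0.95 and 0.95, and as deviations Kctd9, Idh2 and Atpaf1, with 0.97, 0.95 and 0.94. Acat1 was most like Etfa, Hadhb and Ech1, each with an r of 0.95, and as deviations Ech1, Hadhb and Idh3b, with 0.95, 0.94 and 0.94. Etfa, Hadhb and Ech1 encode proteins of fatty acid oxidation.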

How the data were processed

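RNA from 25 mouse hearts was sequenced after ribosomal RNA depletion with a strand-specific kit, per the labels' protocols. The authors deposited 1 table of whole-number read counts per Ensembl gene, treated here as raw counts. The submitters' processing notes name STAR 2.7.9a, cutadapt 1.16, featureCounts 1.6.3, DESeq2 1.42.1 and the builds GRCm39 and mm39, without roles. The annotation, the strand setting and the treatment of reads that map to several genes are not given in the sources used here, so counts of overlapping genes and close copies are uncertain. Each column was matched to a heart by the library identifier in its title, and 0 columns were left over. Symbols, lengths and GC content came from GENCODE M21, and promoters from RefSeq.

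A single edgeR 4.0.16 model (R 4.3.3, limma 3.58.1) of the 6 groups was fitted to all 25 hearts, with filterByExpr, TMM scaling, glmQLFit (robust) and glmQLFTest, 19 residual degrees of freedom and a common biological coefficient of variation of 0.196. Tests were two-sided, Benjamini-Hochberg adjusted over the 17682 tested genes of each comparison, and called below 0.05. CPM is the count divided by the TMM-scaled library total in units of 10⁶ counts. Log2 CPM used a prior count of 2. The 12 comparisons of 3 enzymes make 36 tests. Alternatives were RLE scaling, no low-count filter, a non-robust fit, the replicate number as a block, Xist, atrial and fat, or clock scores as covariates, GC and length offsets (mgcv 1.9.3) with and without the block, removal of mitochondrially encoded genes, only the groups compared, DESeq2 1.42.0, the median transcript length, and each heart left out. Leaving out saline hearts with atrial markers was added after seeing the data. It left 1 saline heart of each genotype. GC and length were known for 97.1% of tested genes. Genes named from the lists are those called in any comparison and then the most abundant, up to 4 a list. The enzymes and all lists were chosen with earlier results of these data known. The edgeR step was tested on simulated counts. Over 43 pairs of hearts within groups, chi-square divided by its degrees of freedom did not go below 3.33, so none was treated as a copy. Some genes of the lists are not reported here.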

Additional observations from a re-analysis of the deposited data

Results flagged for a closer look

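Bdh1 in WT saline replicate 6 had a log2 CPM of 5.84, far below the other 5 hearts of its group by a test of its gap to the nearest heart against the group's range. It was the only such value in 12 tests of an enzyme in a group of 4 or more hearts, and chance gives about 1 in 20 groups such a value. The same heart had the lowest Oxct1 (792 CPM) and Acat1 (305 CPM) of the WT saline hearts, where the other 5 had 981 to 1187 and 356 to 437 CPM. Its atrial markers summed to 519 CPM, its mitochondrially encoded genes took 8.94% of counts against 10.8 to 14.8% in the other 5, and Xist was at 585 CPM against at most 0.454 CPM. Their part in the low Bdh1 value was not tested.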

How the results depend on the processing

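Of 1368 values of the 36 enzyme comparisons under 13 alternatives and 25 hearts left out, 1299 kept their direction and their side of the threshold, 13 lost a call, 4 gained one and 52 changed sign, none of the latter with a call. The cause of each change was not tested.

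Bdh1 for Ang/PE against saline in MCT1KO-labelled hearts lost its call at 0.99 without the low-count filter, 0.32 with atrial and fat scores, 0.79 with the clock score, 1.03 with GC and length offsets and the replicate block, 0.98 with only the groups compared and 0.38 without the saline hearts rich in atrial markers. With 1 heart left out it was 0.75 to 1.27. For Oxct1 the same comparison gained a call with DESeq2 (0.49) and ran from 0.30 to 0.64 with 1 heart left out. For Acat1 the sign turned with atrial and fat scores (-0.22) and without the hearts rich in atrial markers (-0.30).

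No same-numbered hearts were shown to be pairs: in none of 9 comparisons were all their correlations over 0.1. With the replicate block, Bdh1 in that comparison was 1.05 and Oxct1 turned sign in 4 comparisons, to -0.0546 between genotypes without a pump, -0.12 for Ang/PE against saline in WT, 0.0845 for saline against no pump in WT and -0.0317 for Ang/PE against no pump in WT. Bdh1 turned to 0.0282 for saline against no pump in WT. With the block plus offsets for GC and length, the 4 Oxct1 values were -0.0803, -0.13, 0.0774 and -0.0491.

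Other changes of sign were near 0 or in comparisons with saline. For Oxct1 between genotypes without a pump they were -0.0189 with atrial and fat scores, -0.0181 with GC and length offsets, -0.0063 without mitochondrially encoded genes and -0.0632 to 0.11 with 1 heart left out. For Oxct1 in saline against no pump in WT they were 0.0002 with RLE, 0.0002 with DESeq2, 0.0241 with Xist, 0.20 with atrial and fat scores, 0.0176 with the clock score, 0.0856 without hearts rich in atrial markers and -0.0772 to 0.0952 with 1 heart left out. For Oxct1 in Ang/PE against saline in WT they were -0.0301 with Xist, -0.16 with atrial and fat scores, -0.0552 without those hearts and -0.0232 to 0.0834 with 1 heart left out. For Oxct1 in Ang/PE against no pump in WT they were -0.0061 with Xist and -0.0399 to 0.13 with 1 left out. With atrial and fat scores, Oxct1 turned to 0.0680 for saline against no pump in MCT1KO. For Bdh1, Ang/PE against saline in WT turned to -0.0244 with Xist and -0.0274 with atrial and fat scores. For Bdh1 in saline against no pump in WT the values were 0.0512 with Xist, 0.17 with atrial and fat scores, 0.0039 without hearts rich in atrial markers and -0.19 to 0.11 with 1 left out. For Bdh1 in saline against no pump in MCT1KO they were 0.16 with atrial and fat scores and 0.0820 without hearts rich in atrial markers. Between genotypes with saline, Bdh1 turned to 0.0955 with atrial and fat scores and 0.24 without the hearts rich in atrial markers. Without those hearts 1 saline heart of each genotype was left. In that setting Acat1 turned to 0.0556 between genotypes with saline. The interactions turned to -0.24 for Acat1 with Ang/PE, 0.0781 for Bdh1 and 0.23 for Acat1 with the pump. Acat1 with 1 heart left out ran from -0.52 to -0.24 between genotypes with saline, -0.0952 to 0.0016 for Ang/PE against saline in WT and -0.63 to -0.35 for saline against no pump in MCT1KO. Acat2 for Ang/PE against saline in MCT1KO turned to 0.25 with atrial and fat scores and 0.0360 without the hearts rich in atrial markers.

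Counts over all genes moved by more than 1.5 times: 788 called for Ang/PE against saline in MCT1KO became 0 to 1224 over the alternatives and 39 to 1541 with 1 heart left out, 1168 for saline against no pump in WT became 0 to 2287 and 60 to 2234, and 89 for Ang/PE against no pump in MCT1KO became 0 to 385 and 1 to 226. The 3 for Ang/PE against saline in WT became 0 to 945 and 1 to 316, and the 1 for saline against no pump in MCT1KO 0 to 209 and 0 to 626. The 1 for the interaction with the pump became 0 to 338 and 0 to 663. Where edgeR called 0, DESeq2 called 1 to 146, and leaving out 1 heart gave up to 250 between genotypes with saline and up to 79 on average over treatments. With the replicate block, 534 genes were called for Ang/PE against saline in MCT1KO and 527 for saline against no pump in WT. Per length, the order Oxct1, Acat1, Bdh1 held with the median transcript length (1425, 732 and 72.5 CPM per kb). Depth did not limit the enzymes, each with at least 573 counts in a heart.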

Other observations

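The ratio of Oxct1 to Acat1 CPM within a heart, looked at after the values were seen and given with no test, was 3.15 to 3.81 in the 5 hearts labelled MCT1KO under Ang/PE (mean 3.42 ± 0.29, SD). In the other 20 hearts it was at most 2.99. WT hearts under Ang/PE had 2.80 to 2.94, and WT hearts without a pump had the lowest mean, 2.25 ± 0.30. MCT1KO saline hearts had 1.94 to 2.99. The ratio of Acat1 to Bdh1 was 1.76 to 3.26 in the same 5 hearts and 2.52 to 6.79 in the other 20, so there the groups overlapped. How many other pairs of genes set these 5 hearts apart was not counted. Their clock score was 1.28 to 3.27, against at most 1.44 in the other 20, and its part in the ratios was not tested.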
